A study of Homo sapiens with 14 samples.

Results

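The data set knockdown of YAP and TAZ directly against knockdown of the BRD genes in MDA-MB-231, an established human breast cancer cell line of basal and mesenchymal character. The comparison holds 8 of the 14 RNA-seq libraries of the series, chosen by their labels alone: 4 with YAP/TAZ siRNA and 4 with BRD siRNA. YAP/TAZ siRNA came as 2 independent siRNA mixes (mix 1 and mix 2, 2 libraries each) and BRD siRNA as 2 others (mix A and mix B, 2 libraries each). All were delivered with a lipid reagent into cells of the same line in the same medium, and RNA was taken after 48 h for YAP/TAZ siRNA and after 72 h for BRD siRNA. Target and time therefore cannot be told apart in any value below. The 2 control siRNA libraries, whose harvest time the labels do not give, are quoted beside the knockdowns as a reference level. No test compares them with another group, and they add only to the error of the fits over all 14 libraries. The 4 remaining libraries, 2 with the BET inhibitor JQ1 (1 µM, 24 h) and 2 with its solvent DMSO, serve as a readout at the end. The labels do not say whether libraries of a mix are separate cultures, so the spread between them may be technical.

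The Hippo kinase cascade ends in a pair of co-activators of transcription, YAP (gene YAP1) and TAZ (gene WWTR1). When the kinases LATS1 and LATS2 are inactive, both enter the nucleus, bind the TEAD factors and switch on genes of growth, cytoskeleton and matrix, and in breast cancer cells they are known as drivers of proliferation and invasion. BRD2 and BRD3 belong to the BET family, whose paired bromodomains bind acetylated histones and help to recruit the elongation machinery to enhancers and promoters. Both sets of proteins are known to act at enhancers, and the title of the series asks what part BET proteins play in gene activation by YAP and TAZ. A direct comparison of the 2 knockdowns shows where the transcriptome of the same cells differs according to which of the 2 was depleted.

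The 8 libraries held 20025159 to 29931316 reads in genes. Values are scaled RPM, reads scaled to an effective library size, and differences are on the log2(value + 1) scale, where a positive value is higher with YAP/TAZ siRNA. This scale understates the change of low genes. A gene was called at an adjusted p under 0.05 (limma with the siRNA mix as a random effect, Benjamini-Hochberg over 13484 genes), so that the spread between mixes of one target enters the test. The basal and mesenchymal markers looked up were present in all 8 libraries except SPARC, which the table does not hold. VIM was at 2894 to 4116, ZEB1 at 109.9 to 144 and FOSL1 at 9.68 to 195. Of the luminal ones, GATA3 lay at 1.15 to 1.53, FOXA1 at 0.0948 to 1.38 and EPCAM higher, at 4.05 to 17.5. ESR1, PGR, CDH1 and ELF5 were not in the table.

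The target of the siRNA, together with its harvest time, was the main axis of difference. The first principal component held 67.6% of the variance and separated the 4 YAP/TAZ from the 4 BRD libraries, the second (19.5%) separated mix 1 from mix 2 and the third (10.2%) separated mix A from mix B. Of the sum of squares of a gene, the target with its time took a median of 53%, the mix within a target 36.4% and the replicate within a mix 3.23%. Libraries of the same mix were thus close, and the siRNA mix was the larger source of spread around the target.

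**Figure D1:**
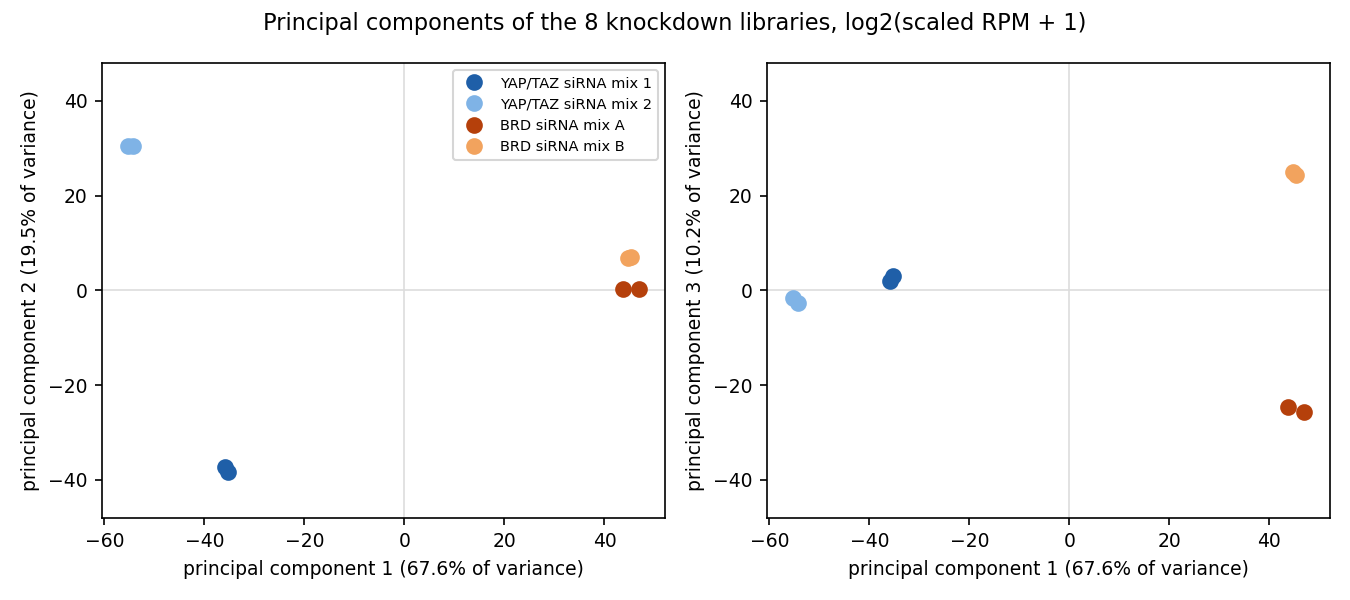
Principal components 1 and 2 (left) and 1 and 3 (right) of log2(scaled RPM + 1), with 1 point per library coloured by siRNA mix. Component 1 (67.6% of variance) splits YAP/TAZ from BRD siRNA, and the next ones split the mixes of each target, while the 2 libraries of each mix lie together.

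limma called 2554 genes (18.9% of those tested), 1480 higher (11%) and 1074 lower (7.96%) with YAP/TAZ siRNA than with BRD siRNA. By at least 2-fold, 1229 genes were higher (9.11%) and 576 lower (4.27%), with libraries that did not overlap for 1228 and 575 of them (25.7% and 23.3% of all genes tested lay wholly above or wholly below). Each of the 4 pairings of a YAP/TAZ mix with a BRD mix gave the same call for 1225 and 569 of these genes (21.1% and 18.5% of all genes tested), by the spread between the 2 libraries of a mix. Both counts come from the same 8 libraries that chose the genes, so they describe the calls and give no independent support. With each mix averaged to 1 value, so that 2 mixes stand against 2, 640 higher and 182 lower genes were called. With upper-quartile scaling the higher share of calls went from 57.9% to 68.2%, and the median difference of all genes from 0.01 to 0.10. A gene that was not called is not shown to be alike in both knockdowns: the 95% interval lay within 1.5-fold in either direction for 895 genes (6.64%).

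**Figure D2:**
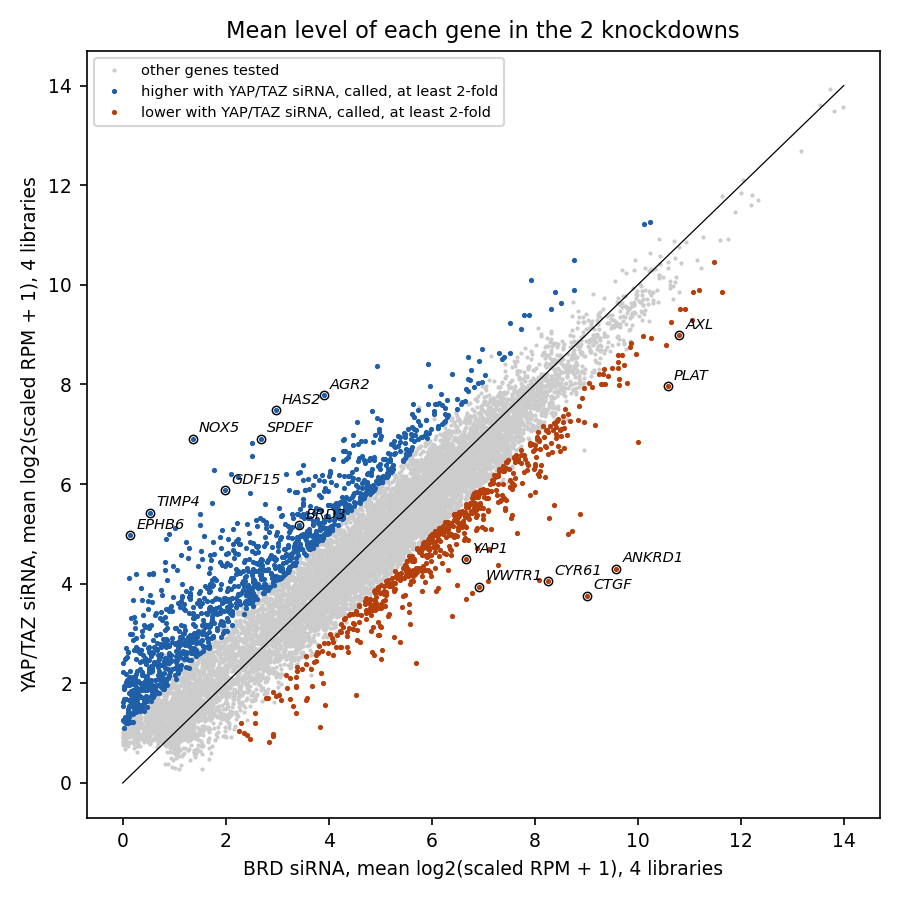
Mean log2(scaled RPM + 1) of each of the 13484 genes over the 4 BRD siRNA libraries (x axis) and the 4 YAP/TAZ siRNA libraries (y axis). The line marks equal levels; 1229 genes (blue) and 576 genes (red) were called at 2-fold or more, and the largest shifts below the line are the YAP/TAZ target genes ANKRD1, CTGF and CYR61.

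The control siRNA libraries, whose harvest time the labels do not give, serve as a reference level for each difference. A position relative to control can reflect time as well as target. Among the 1228 genes at least 2-fold higher by the mean with YAP/TAZ siRNA and with libraries that did not overlap, both control libraries lay between the knockdowns for 576 (46.9%), so that these genes stood above control with YAP/TAZ siRNA and below it with BRD siRNA. Control lay above both knockdowns for 40 of them (3.26%) and below both for 91 (7.41%). Among the 575 lower genes, control lay between for 198 (34.4%), above both for 98 (17%) and below both for 23 (4%). For the other 521 and 256 genes a control library fell within the range of one knockdown. These counts describe where control lies and carry no test. The genes were chosen for a wide gap between the knockdowns, which favours a control level between them. The share over all genes was not counted.

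The targeted transcripts differed between the knockdowns by their labels. YAP1 was at 24.2 and 22.4 with mix 1 and 21.3 and 18.6 with mix 2, against 96.1 and 94.5 with mix A and 106 and 105 with mix B, while control siRNA gave 190.0 and 174. The groups did not overlap, and YAP1 was 4.49-fold lower with YAP/TAZ siRNA (log2 difference -2.17, SE 0.23, adjusted p = 3.88e-05). WWTR1 was at 15.3 and 17.2 with mix 1 and 12.8 and 12.7 with mix 2, against 147 and 154 with mix A and 98.1 and 94.6 with mix B (log2 difference -2.98, SE 0.25, adjusted p = 7.05e-06). Control siRNA gave 135 and 126, below the mix A libraries and above those of mix B. BRD3 went the other way, with 35.8 and 37.4 with mix 1 and 35.6 and 32.1 with mix 2 against 10.6 and 9.05 with mix A and 10.1 and 9.25 with mix B and 32.5 and 29.7 in the control (log2 difference 1.75, SE 0.28, adjusted p = 0.000702). BRD2 was higher in all 4 YAP/TAZ libraries, at 345 and 344 with mix 1 and 237 and 235 with mix 2, than in the BRD libraries, at 204 and 175 with mix A and 166 and 154 with mix B, but its difference of 0.71 (SE 0.24) missed the threshold (limma adjusted p = 0.0549), and it passed without BRD mix A replicate 1 (0.77, adjusted p = 0.0298). The label of every library thus matched the level of YAP1, WWTR1 and BRD3, and the BRD mixes differed from the YAP/TAZ mixes less in BRD2.

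Known target genes of YAP and TAZ made the 4 largest differences in the lower direction. Of 30 such genes tested, 18 were lower with YAP/TAZ siRNA, 1 was higher and 11 did not pass, with a median log2 difference of -1.09 beside 0.01 for all genes. That is 63.3% called, against 18.9% of all genes. With mixes averaged, 7 were lower and 1 was higher, beside 182 lower and 640 higher of all genes. ANKRD1, a cardiac ankyrin repeat protein used as a readout of YAP/TAZ activity, was at 11.1 and 12.3 with mix 1 and 28.9 and 30.7 with mix 2, against 643 and 749 with mix A and 815 and 875 with mix B and 441 and 403 with control siRNA. Both knockdowns lay away from control, below it with YAP/TAZ siRNA and above it with BRD siRNA, and the difference was 38.8-fold (log2 difference -5.28, SE 0.34, adjusted p = 6.23e-07). CTGF (CCN2), a secreted matricellular protein, was at 5.54 and 6.69 with mix 1 and 24.2 and 25.6 with mix 2, against 292 and 317 with mix A and 879 and 880.1 with mix B and 201 and 184 in the control (log2 difference -5.26, SE 0.51, adjusted p = 2.01e-05). Its mixes were spread widely on both sides, yet every BRD library lay above control and every YAP/TAZ library below it. CYR61 (CCN1), the close relative of CTGF, was at 8.42 and 8.56 with mix 1 and 28.7 and 27.9 with mix 2, against 210.1 and 219 with mix A and 433 and 441 with mix B (log2 difference -4.20, SE 0.40, adjusted p = 2.01e-05). Control siRNA gave 229 and 213, close to BRD mix A.

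Further members of the target list followed in the same direction. DDAH1, which degrades inhibitors of nitric oxide synthesis, was at 33.8 and 35.7 with mix 1 and 6.63 and 7.34 with mix 2, against 306 and 340.1 with mix A and 228 and 229.6 with mix B and 187 and 172 in the control (log2 difference -4.01, SE 0.47, adjusted p = 8.21e-05). TNFRSF12A, the receptor of the cytokine TWEAK, hardly varied among the YAP/TAZ libraries, at 37.5 to 41.8, against 263 to 373 with BRD siRNA and 133 and 167 in the control (log2 difference -2.97, SE 0.20, adjusted p = 1.17e-06). AMOTL2, an angiomotin that itself restrains YAP, was at 35.2 to 47.4, against 169 to 211 and 163 to 167 (log2 difference -2.18, SE 0.20, adjusted p = 1.32e-05). The receptor tyrosine kinase AXL was at 353 and 378 with mix 1 and 673 and 738 with mix 2, against 1329 and 1349 with mix A and 2363 and 2451 with mix B and 1469.7 and 1431 in the control (log2 difference -1.82, SE 0.32, adjusted p = 0.00151). AXL with BRD mix A lay just below control, and with mix B above it. Averaged by mix, the call of AXL was lost (adjusted p = 0.0688). Named after their values were seen, F3, ASAP1, CRIM1, NT5E, DUSP1, IGFBP3, LATS2, AJUBA, AMOTL1 and PTPN14 were further members called lower, and INHBA, an activin subunit, was the 1 called higher (1.23, adjusted p = 0.0226), a count that was 0 without BRD mix A replicate 2 and 2 without YAP/TAZ mix 2 replicate 2.

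The promoters of the leading genes are shown because YAP and TAZ reach DNA through TEAD factors, whose binding site has the core GGAATG. The sequences are from RefSeq (GRCh38.p14), the 250 bases before the start of the gene, read 5′ to 3′ on the strand of the gene; the deposited values were made on hg19, and no coordinate was carried between builds. Capitals mark GGAATG on the strand of the gene or CATTCC, its reverse complement. CTGF, ANKRD1 and DKK1 were lower and NOX5 was higher with YAP/TAZ siRNA.
CTGF (chr6:131951373-131951622, minus strand): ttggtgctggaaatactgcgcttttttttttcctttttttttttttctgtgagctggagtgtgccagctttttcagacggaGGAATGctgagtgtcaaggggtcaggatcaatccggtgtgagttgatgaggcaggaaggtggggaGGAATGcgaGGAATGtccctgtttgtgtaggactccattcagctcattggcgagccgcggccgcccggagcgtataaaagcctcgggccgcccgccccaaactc
ANKRD1 (chr10:90921088-90921337, minus strand): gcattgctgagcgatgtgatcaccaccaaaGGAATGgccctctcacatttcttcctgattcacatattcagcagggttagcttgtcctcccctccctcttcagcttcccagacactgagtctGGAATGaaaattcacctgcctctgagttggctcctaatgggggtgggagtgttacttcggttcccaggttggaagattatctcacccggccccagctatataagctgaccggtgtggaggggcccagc
DKK1 (chr10:52314031-52314280, plus strand): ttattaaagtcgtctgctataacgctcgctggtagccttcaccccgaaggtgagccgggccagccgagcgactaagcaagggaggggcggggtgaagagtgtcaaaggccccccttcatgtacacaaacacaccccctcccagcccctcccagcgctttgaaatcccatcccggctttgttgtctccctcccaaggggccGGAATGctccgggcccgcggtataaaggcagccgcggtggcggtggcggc
NOX5 (chr15:69014445-69014694, plus strand): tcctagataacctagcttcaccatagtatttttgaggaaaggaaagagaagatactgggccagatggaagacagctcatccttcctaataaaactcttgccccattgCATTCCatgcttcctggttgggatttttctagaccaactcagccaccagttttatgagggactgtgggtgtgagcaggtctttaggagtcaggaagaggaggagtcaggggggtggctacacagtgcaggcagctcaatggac
In CTGF the core begins 169, 104 and 95 bases before the start, and the last 2 copies stand 3 bases apart. In ANKRD1 it begins at 220 and 128 bases, in DKK1 at 50 bases, and in NOX5 the reverse complement begins at 143 bases. The core was found on either strand in 11.9% of the 35116 promoters of the table, so 1 copy is common. A match is a description of letters, not a binding site. Only 78.5% of the genes tested had a promoter in the table, so the share in called genes was not compared. CYR61 is named without its sequence.

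**Figure D3:**
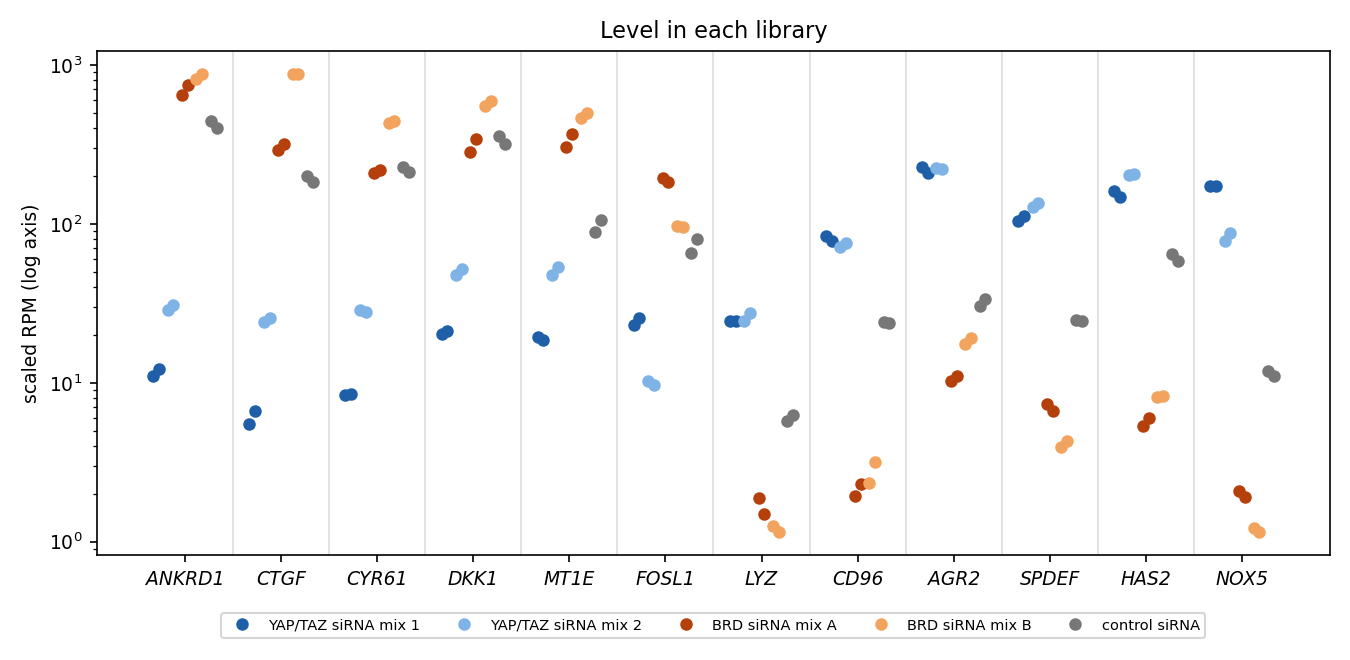
Scaled RPM (log axis) of 12 genes in each library, coloured by siRNA mix, with the 2 control siRNA libraries in grey. The 4 YAP/TAZ libraries lie wholly below the 4 BRD libraries for the 6 genes on the left and wholly above them for the 6 on the right.

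The list of Hippo pathway genes holds the siRNA targets themselves. Of 31 pathway genes and TEAD factors tested, 10 were lower with YAP/TAZ siRNA, 1 was higher and 20 did not pass (median log2 difference -0.49). The called share was 35.5%, against 18.9% of all genes. Besides YAP1 and WWTR1, which the siRNA targets, the lower genes included the angiomotin AMOTL2 and the LIM protein AJUBA. AMOTL2, AJUBA and LATS2 were already counted in the YAP/TAZ target list, so the counts of the 2 lists are not separate. AJUBA, which binds the LATS kinases, was at 109.7 and 119.6 with mix 1 and 109 and 111 with mix 2, against 213 and 206 with mix A and 262 and 284 with mix B (log2 difference -1.08, SE 0.21, adjusted p = 0.00262), a call that was lost when mixes were averaged (adjusted p = 0.0557). Chosen after their values were seen, the LIM protein gene WTIP (-2.37, adjusted p = 0.00268), the TEAD cofactor gene VGLL3 (-1.38, adjusted p = 0.0147) and the kinase gene LATS2 (-1.1, adjusted p = 0.0194) were also lower. TEAD2 was the single member called higher (1.33, adjusted p = 0.00733), whereas TEAD1, TEAD3 and TEAD4 did not pass, with log2 differences of 0.48, 0.36 and 0.19.

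Outside the target list, DKK1, a secreted antagonist of WNT signalling, was among the largest differences. It was at 20.3 and 21.3 with mix 1 and 47.4 and 51.7 with mix 2, against 285 and 343 with mix A and 554 and 596 with mix B and 356 and 318 in the control (log2 difference -3.68, SE 0.37, adjusted p = 3.09e-05). FOSL1 (FRA-1), the AP-1 subunit that marks basal breast cancer cells, was at 23.1 and 25.4 with mix 1 and 10.2 and 9.68 with mix 2, against 195 and 184 with mix A and 97 and 95.5 with mix B and 66 and 80.7 in the control (log2 difference -3.04, SE 0.36, adjusted p = 9.22e-05). SEMA7A, a membrane-anchored semaphorin, was at 84.7 and 93.3 with mix 1 and 19 and 18.6 with mix 2, against 689 and 720.4 with mix A and 313 and 315 with mix B (log2 difference -3.48, SE 0.50, adjusted p = 0.000365). Its control level of 112 and 133 lay between the knockdowns. ZNF114, a zinc finger gene, was at 4.09 to 4.54, against 67.5 and 71 with mix A and 37.5 and 37 with mix B and 11.4 and 10.3 in the control (log2 difference -3.29, SE 0.30, adjusted p = 1.21e-05). CPA4, a carboxypeptidase, was at 12.5 and 10.9 with mix 1 and 6.80 and 7.48 with mix 2, against 37.4 and 37 with mix A and 186 and 181 with mix B (log2 difference -3.05, SE 0.50, adjusted p = 0.000982). The CPA4 difference was larger against mix B alone (-4.18) than against mix A alone (-1.91). Averaged by mix, SEMA7A (adjusted p = 0.0577) and CPA4 (0.0689) were not called.

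Metallothionein and antioxidant genes were lower with YAP/TAZ siRNA in 8 of 24 cases and higher in 2 (median log2 difference -0.44). The called share was 41.7%, against 18.9% of all genes. Metallothioneins are small proteins that bind zinc and copper. MT2A was at 73.2 and 75.3 with mix 1 and 160.1 and 196 with mix 2, against 649 and 764 with mix A and 1546 and 1437 with mix B and 199 and 238 in the control (log2 difference -3.15, SE 0.41, adjusted p = 0.000193). MT1E was at 19.5 and 18.7 with mix 1 and 47.9 and 53.1 with mix 2, against 304 and 367 with mix A and 463 and 498 with mix B and 89.4 and 106 (log2 difference -3.64, SE 0.37, adjusted p = 3.14e-05). In both genes every BRD library lay above control and every YAP/TAZ library below it; these genes are near copies of each other, and how reads shared among them were counted is uncertain. SRXN1, sulfiredoxin, which repairs peroxiredoxins, was at 34.8 and 37.9 with mix 1 and 16 and 18.4 with mix 2, against 109 and 116 with mix A and 160.5 and 179 with mix B and 67.7 and 62 (log2 difference -2.42, SE 0.33, adjusted p = 0.00024). The list also holds the largest difference in the other direction, the oxidase NOX5.

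NOX5, a calcium-activated NADPH oxidase that makes superoxide, was at 174 and 173 with mix 1 and 78.2 and 87.2 with mix 2, against 2.09 and 1.91 with mix A and 1.22 and 1.15 with mix B and 11.9 and 11 with control siRNA. It was 47.2-fold higher with YAP/TAZ siRNA (log2 difference 5.56, SE 0.33, adjusted p = 5.67e-07), with the control level between the knockdowns. HAS2, which makes the matrix polysaccharide hyaluronan, was at 161 and 148 with mix 1 and 202 and 207 with mix 2, against 5.36 and 5.98 with mix A and 8.13 and 8.27 with mix B and 64.4 and 58.5 in the control (log2 difference 4.51, SE 0.25, adjusted p = 3.96e-07). TIMP4, an inhibitor of metalloproteinases, was at 38.6 to 47.9, against 0.298 to 0.71 and 8.37 to 9.09 (log2 difference 4.90, SE 0.35, adjusted p = 1.22e-06). EPHB6, an ephrin receptor without kinase activity, was at 22.9 and 21.6 with mix 1 and 41.2 and 42.2 with mix 2, against 0 to 0.272 and 1.39 and 1.87 in the control (log2 difference 4.83, SE 0.34, adjusted p = 1.22e-06). A single BRD library held no EPHB6 read. CD96, known as a receptor of lymphocytes, was at 71.5 to 84.2, against 1.94 to 3.20 and 23.7 to 24.2 (log2 difference 4.51, SE 0.32, adjusted p = 1.22e-06). SEMA6B, a transmembrane semaphorin, was at 176 and 206 with mix 1 and 63.7 and 68.2 with mix 2, against 3.47 to 6.45 and 40.1 and 49.4 (log2 difference 4.32, SE 0.41, adjusted p = 1.85e-05). In all 6 of these genes the control libraries lay between the knockdowns.

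The remaining genes of the 10 with the largest higher levels were SPDEF, CALHM3, RAB37 and F2RL3. CALHM3, a channel gene, was at 31.8 to 34.9, against 2.47 and 2.65 with mix A and 0.102 and 0.17 with mix B (log2 difference 4.10, SE 0.42, adjusted p = 3.3e-05). RAB37, a small GTPase of secretory vesicles, was at 65.8 to 79.5, against 2.47 to 4.55 and 7.30 to 9.75 in the control (log2 difference 4.10, SE 0.29, adjusted p = 1.22e-06). F2RL3, a thrombin receptor, was at 25.5 to 37.3, against 0.511 to 1.64 and 10.4 to 14 (log2 difference 4.08, SE 0.39, adjusted p = 2.04e-05). LAPTM5, a lysosomal membrane protein, was at 63 and 67 with mix 1 and 127 and 146 with mix 2, against 3.10 to 5.98 (log2 difference 4.05, SE 0.41, adjusted p = 3.09e-05). With control siRNA LAPTM5 stood at 61.1 and 61.1, near the level of YAP/TAZ mix 1. GDF15, a secreted stress factor, was at 62.8 and 71.3 with mix 1 and 48.8 and 51.4 with mix 2, against 2.21 to 3.91 (log2 difference 3.90, SE 0.33, adjusted p = 7.05e-06). Its control level, 2.77 to 3.79, was that of the BRD libraries, and the YAP/TAZ libraries stood away from both.

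Luminal epithelial markers stood higher with YAP/TAZ siRNA. Of 22 markers written, 17 were in the table and tested. Of these, 11 were higher, none was lower and 6 did not pass (median log2 difference 1.35), 64.7% against 18.9% of all genes. For 14 of them all YAP/TAZ libraries lay above those of BRD siRNA (25.7% of all genes tested). SPDEF, an ETS factor of luminal and secretory cells, was at 104 and 113 with mix 1 and 128 and 136 with mix 2, against 7.40 and 6.65 with mix A and 3.95 and 4.30 with mix B and 24.9 and 24.4 in the control (log2 difference 4.23, SE 0.28, adjusted p = 6.23e-07). AGR2, a protein of the secretory pathway, was at 228 and 210.2 with mix 1 and 223 and 219.6 with mix 2, against 10.2 and 11 with mix A and 17.6 and 19.3 with mix B and 30.4 and 33.6 (log2 difference 3.88, SE 0.25, adjusted p = 6.23e-07). Both genes lay above control with YAP/TAZ siRNA and below it with BRD siRNA in every library. The epithelial factor ELF3 was at 6.23 to 7.94, against 0.034 to 0.237 and 0.963 to 1.39 (log2 difference 2.80, SE 0.32, adjusted p = 7.11e-05). XBP1, a factor of secretory cells and of the unfolded protein response, was at 149.9 and 159.8 with mix 1 and 209.6 and 207 with mix 2, against 48.4 to 55.3 and 74 to 79.1 (log2 difference 1.76, SE 0.21, adjusted p = 0.000108). The summed level of the 17 markers was 2703 to 2919 with YAP/TAZ siRNA, 1321 to 1681 with BRD siRNA and 1398 to 1459 with control siRNA. With JQ1 it was higher still, at 5456 to 5932, against 1483 to 1487 with DMSO. By gene, though, 8 of the 17 were called higher and 4 lower after JQ1 (median 0.14; 37.6% and 36.3% of all genes). The summed level of 17 basal and mesenchymal markers was 14610 to 16779 with YAP/TAZ siRNA and 16492 to 24910 with BRD siRNA. It was 12952 to 13499 with control siRNA, 20267 to 20625 with JQ1 and 12885 to 12892 with DMSO. Of the defining factors of the luminal type, GATA3 stayed low, at most 1.53 in any of the 8 libraries. Whether cells changed state or proportions was not tested, and in bulk RNA fewer cells of a type and less RNA per cell cannot be told apart.

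Genes of epithelial adhesion and of the mesenchymal state moved with them in part. Among 20 genes of the epithelial-mesenchymal transition, 8 were higher and 2 lower (median 0.63), 50% called against 18.9% of all genes. The epithelial members JUP (plakoglobin), CLDN4 (a claudin of tight junctions) and ESRP2 (an epithelial splicing factor) were higher. JUP was at 65 to 78.2, against 19.3 to 22.3 and 14.2 to 16.8 in the control (log2 difference 1.76, SE 0.22, adjusted p = 0.000141). CLDN4 was at 99.3 to 133, against 20.6 to 37.6 and 50.8 to 53.8 (log2 difference 1.98, SE 0.25, adjusted p = 0.000165). ESRP2 was at 5.95 to 7.30, against 0.569 to 0.897 (log2 difference 2.11, SE 0.35, adjusted p = 0.00111). SNAI2 (SLUG), a repressor of epithelial genes, was lower, at 3.95 to 5.75, against 29.1 to 34.2 and 12.7 to 13.6 (log2 difference -2.53, SE 0.31, adjusted p = 0.000128). Of 17 basal and mesenchymal markers, 5 were lower and 1 was higher (median -0.33), 35.3% called against 18.9% of all genes. The lower ones were FOSL1, AXL, PLAU, CAV2 and CD44, and CAV2, a caveolin, was at 84 and 78.7 with mix 1 and 51.1 and 48.6 with mix 2, against 179.5 to 201 (log2 difference -1.55, SE 0.24, adjusted p = 0.000623). Vimentin itself, VIM, had a log2 difference of 0.15 and did not pass (adjusted p = 0.731).

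Interferon-stimulated genes were higher with YAP/TAZ siRNA in 20 of 49 cases and lower in 2, with 27 that did not pass (median 0.66). Called members made 44.9%, against 18.9% of all genes. The leading members sense or restrict viral RNA. OAS2, an oligoadenylate synthetase, was at 50.9 and 51.7 with mix 1 and 63.2 and 67.9 with mix 2, against 13.4 and 13 with mix A and 8.95 and 8.14 with mix B and 23.8 and 24.7 in the control (log2 difference 2.34, SE 0.26, adjusted p = 6.84e-05). OAS1, of the same family, was at 6.39 to 8.15, against 0.204 to 0.379 and 0.693 to 1.08 (log2 difference 2.67, SE 0.32, adjusted p = 9.35e-05). SAMD9L, an antiviral factor, was at 39.5 to 43.9, against 8.26 to 10.6 and 26.3 to 26.6 (log2 difference 2.01, SE 0.24, adjusted p = 9.35e-05). IFI35 was at 72.2 to 85.2, against 17.7 to 27.9 and 26.4 to 26.6 (log2 difference 1.77, SE 0.24, adjusted p = 0.000244). Control lay between the knockdowns for OAS2, OAS1 and SAMD9L and within the range of the BRD libraries for IFI35. Of the 2 lower members, IFIT2 is named after its value was seen (-1.04, adjusted p = 0.0317). The number called lower was 0 without YAP/TAZ mix 1 replicate 2, BRD mix A replicate 2 or BRD mix B replicate 2, and 1 without either library of YAP/TAZ mix 2 or BRD mix B replicate 1.

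All 45 ribosome biogenesis genes tested had a negative log2 difference, 28 were called lower, none was higher and 17 did not pass (median -0.86). Called members made 62.2%, against 18.9% of all genes. Of the 45, 40 had libraries wholly below those of BRD siRNA (23.3% of all genes tested). DDX21, a nucleolar RNA helicase, was at 115 and 120.1 with mix 1 and 78.8 and 80.1 with mix 2, against 299 and 329 with mix A and 304 and 293 with mix B and 619 and 536 with control siRNA (log2 difference -1.65, SE 0.22, adjusted p = 0.000191). NOLC1, a nucleolar scaffold, was at 84.9 to 97.9, against 242 to 269 and 263 to 284 (log2 difference -1.48, SE 0.19, adjusted p = 0.000149). EBNA1BP2, which acts in assembly of the large subunit, was at 72.7 to 78.8, against 199.5 to 269.9 and 222 to 224 (log2 difference -1.57, SE 0.22, adjusted p = 0.000282). RRP12, needed for export of both subunits, was at 29.2 to 32.6, against 75 to 84 and 96.4 to 104 (log2 difference -1.36, SE 0.19, adjusted p = 0.000346). For these 4 genes BRD siRNA lay near control or part of the way down, and YAP/TAZ siRNA lay below both. The number called lower was 35 with either YAP/TAZ mix alone, 16 against BRD mix A alone, 22 against mix B alone and 11 with mixes averaged. Over all genes, lower calls also went from 1074 to 1908 with YAP/TAZ mix 1 alone and 2363 with mix 2 alone. They were 554 against BRD mix A alone, 515 against mix B alone and 182 with mixes averaged.

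Of 76 cytosolic ribosomal protein genes tested, 2 were lower and 74 did not pass (median -0.34), a called share of 2.63% against 18.9% of all genes. RPL36, of the large subunit, was at 259 to 304, against 473 to 526 (log2 difference -0.84, SE 0.20, adjusted p = 0.00964), and was not called with mixes averaged (adjusted p = 0.0793). RPS20, of the small subunit, was at 164 and 152 with mix 1 and 375 and 373 with mix 2, against 414 to 571 (log2 difference -1.02, SE 0.32, adjusted p = 0.0398). The RPS20 call was lost without any 1 of 7 of the 8 libraries (all but BRD mix A replicate 1, without which 4 members were lower) and with mix 2 alone (-0.40, adjusted p = 0.139). With YAP/TAZ mix 1 alone 29 members were lower and with mix 2 alone 2 were, so the count depends on the mix. Over all genes, 2052 were higher and 1908 lower with mix 1 alone, and 2586 and 2363 with mix 2 alone. Of 63 respiratory chain genes, 2 were higher and 0 lower (median -0.13, 3.17% called), and 13 had an interval within 1.5-fold (6.64% of all genes). With YAP/TAZ mix 1 alone 3 were higher and 15 lower, and with mix 2 alone 6 and 2. NDUFS3, a subunit of complex I, stood apart at 44.4 and 43.2 with mix 1 and 67.1 and 64.7 with mix 2, against 12.3 to 14 and 51.2 to 56.7 in the control (log2 difference 1.96, SE 0.24, adjusted p = 0.000129). ATP5L, a subunit of ATP synthase, was the other (log2 difference 0.65, SE 0.21, adjusted p = 0.0411), and its call was lost without either library of YAP/TAZ mix 1, mix 2 or BRD mix B (adjusted p = 0.0572 to 0.0664).

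Among the genes of proliferation, 7 of 49 DNA replication genes were lower with YAP/TAZ siRNA, 2 were higher and 40 did not pass (median -0.31). This called share of 18.4% is near the 18.9% of all genes, and 1 of the 49 had an interval within 1.5-fold. PCNA, the sliding clamp of the replication fork, was at 54.9 to 62, against 114 to 137 and 242 to 262 with control siRNA (log2 difference -1.11, SE 0.21, adjusted p = 0.00233). RRM2, a subunit of ribonucleotide reductase, was at 42.5 and 48 with mix 1 and 18 and 22.1 with mix 2, against 60.9 and 74.1 with mix A and 112 and 126 with mix B and 307 to 324 (log2 difference -1.54, SE 0.41, adjusted p = 0.0176). GINS4, of the replicative helicase, was an exception, at 47 and 48.3 with mix 1 and 75.4 and 79.8 with mix 2, against 16 and 18.5 with mix A and 29.4 and 29.8 with mix B, with YAP/TAZ mix 2 near the control level of 80.2 to 82 (log2 difference 1.39, SE 0.30, adjusted p = 0.00525). With mixes averaged, RRM2 (adjusted p = 0.108) and GINS4 (0.0845) were not called, and with YAP/TAZ mix 1 alone RRM2 was at -0.97. Without YAP/TAZ mix 1 replicate 1, either library of mix 2, BRD mix A replicate 2 or BRD mix B replicate 2, 3 or 4 replication genes were lower, and without any 1 of the 8 libraries 1 was higher.

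Mitotic genes gave 4 lower and 0 higher of 43, 9.30% against 18.9% of all genes (median -0.32). CDK1, the kinase that drives entry into mitosis, was at 48.8 to 54.2, against 86.3 to 131 and 241 to 270.0 in the control (log2 difference -1.08, SE 0.28, adjusted p = 0.0172). KIF23, a kinesin of cytokinesis, was at 39.5 and 44.1 with mix 1 and 16.1 and 15.9 with mix 2, against 74.3 to 84.2 and 229 to 243 (log2 difference -1.59, SE 0.34, adjusted p = 0.00529), and with mix 1 alone at -0.92. KIF11, the spindle kinesin (-0.65, adjusted p = 0.0345), and NCAPH, a condensin subunit (-0.95, adjusted p = 0.0348), were the others. Both calls were lost without YAP/TAZ mix 1 replicate 1, mix 2 replicate 1 or BRD mix A replicate 2, and that of KIF11 also without YAP/TAZ mix 1 replicate 2 or BRD mix B replicate 2 (adjusted p = 0.0518 to 0.0678 over both genes). With mixes averaged, CDK1 (adjusted p = 0.0561) and KIF23 (0.0939) were not called. The mixes disagreed, with 3 higher and 5 lower with YAP/TAZ mix 1 alone, and 0 and 21 with mix 2 alone. Calls over all genes were 2052 higher and 1908 lower with mix 1 alone, and 2586 and 2363 with mix 2 alone.

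Clustered histone genes, whose transcripts are made in S phase, gave 7 lower and 0 higher of 38, 18.4% against 18.9% of all genes (median -0.60). HIST1H2BK was at 128 and 133 with mix 1 and 94.7 and 97.8 with mix 2, against 295 to 342 and 509 to 573 in the control (log2 difference -1.50, SE 0.21, adjusted p = 0.000307). HIST1H2AI was at 11.5 and 13.1 with mix 1 and 6.92 and 7.39 with mix 2, against 21.8 to 24.6 and 113 to 137 (log2 difference -1.25, SE 0.30, adjusted p = 0.0112). Both knockdowns lay below control in these genes, YAP/TAZ siRNA the farther. These genes are near copies, so their separate values are uncertain. With mix 2 alone 23 were lower and with mix 1 alone 7, and the average of mixes left 1 called. Lower calls over all genes were 2363 with mix 2 alone, 1908 with mix 1 alone and 182 with mixes averaged.

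Regulators of entry into S phase differed in both directions. Of 18 G1/S cyclins, kinases and inhibitors, 2 were higher and 4 lower (median -0.15), 33.3% called against 18.9% of all genes. CDKN2C (p18), an inhibitor of the G1 kinases, was at 107 and 109 with mix 1 and 124 and 125 with mix 2, against 29.4 and 30.0 with mix A and 21.3 and 20.8 with mix B and 72.7 to 74.6 in the control (log2 difference 2.17, SE 0.21, adjusted p = 2.01e-05). It lay above control with YAP/TAZ siRNA and below it with BRD siRNA. SKP2, a subunit of the ligase that degrades CDK inhibitors, was at 13.2 and 12.3 with mix 1 and 4.97 and 5.09 with mix 2, against 40.9 to 52.5 and 93.9 to 98.4 (log2 difference -2.40, SE 0.35, adjusted p = 0.000385). CCND3, a D-type cyclin, was at 131 to 177, against 83.8 to 86.3 and 152 to 159 (log2 difference 0.83, SE 0.19, adjusted p = 0.00852; adjusted p = 0.0885 with mixes averaged). CCNE2, an E-type cyclin, was at 1.15 to 3.24, against 6.92 to 11.2 and 56.6 to 67.7 (log2 difference -1.76, SE 0.37, adjusted p = 0.00496; adjusted p = 0.0552 with mixes averaged). Of 17 E2F and RB family genes, 1 was higher and 4 lower (median -0.04), 29.4% called against 18.9% of all genes. E2F4, an E2F of resting cells, was at 38 to 47, against 105 to 121 and 91.6 to 96.4 (log2 difference -1.39, SE 0.19, adjusted p = 0.000298). Without replicate 2 of either YAP/TAZ mix, 2 genes of the G1/S list were lower, and without BRD mix A replicate 1 no E2F gene was called higher. E2F4 lay above control with BRD siRNA and below it with YAP/TAZ siRNA.

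Matrix, integrin and adhesion genes went both ways, with 8 higher and 10 lower of 40 (median -0.23), 45% called against 18.9% of all genes. The 3 chains of collagen VI were all higher. COL6A3 was at 25 to 29.7, against 1.66 to 3.03 and 13.4 to 14.9 in the control (log2 difference 3.08, SE 0.36, adjusted p = 8.21e-05). COL6A1 was at 212 and 221 with mix 1 and 179 and 166 with mix 2, against 96.1 and 85.2 with mix A and 49.1 and 46.8 with mix B (log2 difference 1.54, SE 0.28, adjusted p = 0.0018; adjusted p = 0.0624 with mixes averaged). COL6A2 was at 24 to 32.2, against 8.01 to 10.5 (log2 difference 1.47, SE 0.28, adjusted p = 0.00238). In the other direction, ITGA2, the alpha chain of a collagen receptor, was at 705 to 769, against 1545 to 2044 (log2 difference -1.30, SE 0.24, adjusted p = 0.00208). At 509 to 545, control ITGA2 lay below both knockdowns, so both stood above it and BRD siRNA the farther.

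Of 16 genes of plasminogen activation and metalloproteinases, 6 were lower and 1, MMP16, was higher, a call lost without any 1 of the 8 libraries (median -0.57). The list had 43.8% called, against 18.9% of all genes. ADAMTS1, a secreted protease that cleaves proteoglycans, was at 38.6 and 45.1 with mix 1 and 69.1 and 70.0 with mix 2, against 262 and 251 with mix A and 224 and 225 with mix B and 107 and 96.3 in the control (log2 difference -2.13, SE 0.25, adjusted p = 9.35e-05). Both plasminogen activators were lower than with BRD siRNA, from opposite sides of control. PLAU (urokinase) was at 163 and 176 with mix 1 and 62.9 and 65.6 with mix 2, against 364 and 392 with mix A and 360.2 and 401 with mix B and 809.7 and 911 (log2 difference -1.85, SE 0.33, adjusted p = 0.0018), below control in both knockdowns. PLAT (tissue activator) was at 381 and 386 with mix 1 and 157 and 166 with mix 2, against 3171 and 3404 with mix A and 717 and 707 with mix B and 141 and 148 (log2 difference -2.61, SE 0.51, adjusted p = 0.00313), above control in both. The values differed between mixes: PLAT was at -1.51 against mix B alone and PLAU at -1.16 with mix 1 alone, and averaged by mix neither was called (adjusted p = 0.106 and 0.0722).

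Cholesterol and fatty acid synthesis gave 8 higher and 0 lower of 33 (median 0.56), 24.2% called against 18.9% of all genes. Of the 33 differences, 31 were positive. SCD, which desaturates fatty acids, was at 2328 and 2220.4 with mix 1 and 921 and 903 with mix 2, against 390.1 and 419.6 with mix A and 469.8 and 450.2 with mix B and 569 and 555 in the control (log2 difference 1.74, SE 0.32, adjusted p = 0.00211). FADS2, another desaturase, was at 551 and 568 with mix 1 and 277 and 282 with mix 2, against 162 and 167 with mix A and 145 and 153 with mix B and 230.3 and 216 (log2 difference 1.33, SE 0.26, adjusted p = 0.00298). TM7SF2, a sterol reductase, was at 38.7 to 50.5, against 18.9 to 22.2 and 11.8 to 12.1 (log2 difference 1.1, SE 0.22, adjusted p = 0.00378). SREBF1, the transcription factor of lipid synthesis, was at 229 and 253 with mix 1 and 287 and 284 with mix 2, against 154 and 134 with mix A and 108 and 111 with mix B (log2 difference 1.06, SE 0.23, adjusted p = 0.0057). The set depended on the YAP/TAZ mix. Mix 1 by itself gave 27 higher and 0 lower (median 1.00), mix 2 by itself 8 and 5 (median 0.09), and averaged by mix the 4 genes named here were not called (adjusted p = 0.0621 to 0.0869). Over all genes, mix 1 by itself gave 2052 higher and 1908 lower, and mix 2 by itself 2586 and 2363.

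Signalling genes held single strong differences within lists that went both ways. Of 38 TGF-beta and BMP genes, 7 were higher and 2 lower (median 0.39), 23.7% called against 18.9% of all genes. The 2 lower were receptors and the named higher ones proteins that store the ligand. TGFBR1, the type I receptor, was at 33.4 and 30.6 with mix 1 and 47.3 and 48.2 with mix 2, against 255 and 264 with mix A and 132 and 130.4 with mix B and 126 and 107 in the control (log2 difference -2.21, SE 0.28, adjusted p = 0.000164). LTBP3, a latent TGF-beta binding protein, was at 30.8 and 36.1 with mix 1 and 21.7 and 21.5 with mix 2, against 2.77 to 3.93 and 4.64 to 7.04 (log2 difference 2.66, SE 0.35, adjusted p = 0.000201). LTBP1, of the same family, was at 209 and 208 with mix 1 and 152 and 147 with mix 2, against 48.6 and 52.9 with mix A and 87.4 and 77.7 with mix B (log2 difference 1.43, SE 0.26, adjusted p = 0.00186; adjusted p = 0.0604 with mixes averaged). TGFBR3 (betaglycan), a co-receptor, was at 28 to 34, against 116 and 122 with mix A and 63.3 and 63.7 with mix B (log2 difference -1.49, SE 0.27, adjusted p = 0.00203; adjusted p = 0.0634 with mixes averaged).

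Among 28 genes of the EGFR family and MAPK feedback, 7 were higher and 4 lower (median 0.04), 39.3% called against 18.9% of all genes. ETV4, an ETS factor downstream of MAPK signalling, was at 135 and 147 with mix 1 and 99.1 and 104 with mix 2, against 29.6 to 33.6 and 70.2 to 76.1 (log2 difference 1.91, SE 0.22, adjusted p = 8.21e-05). NRG1 (neuregulin), a ligand of ERBB receptors, was at 83.2 and 86.7 with mix 1 and 59.9 and 70.6 with mix 2, against 19.1 to 23.3 and 82.7 to 84.4 (log2 difference 1.78, SE 0.25, adjusted p = 0.000318), with the YAP/TAZ libraries of mix 1 at the control level. DUSP10, a phosphatase of MAP kinases, was at 5.32 to 7.28, against 19.9 to 26.2 and 13.7 to 15.8 (log2 difference -1.79, SE 0.29, adjusted p = 0.000947). MET, the receptor of hepatocyte growth factor, was at 174 and 166 with mix 1 and 106 and 108 with mix 2, against 292 to 363 and 228 to 266 (log2 difference -1.27, SE 0.22, adjusted p = 0.00141; adjusted p = 0.0634 with mixes averaged). Angiogenic receptors and ligands gave 6 higher and 3 lower of 17 (median 0.26), 52.9% called against 18.9% of all genes. PGF, placental growth factor, was at 17.8 and 21.3 with mix 1 and 31 and 29.4 with mix 2, against 3.51 to 6.18 (log2 difference 2.16, SE 0.33, adjusted p = 0.000603). KDR, the main VEGF receptor, was at 3.16 and 3.79 with mix 1 and 7.94 and 8.35 with mix 2, against 40.3 and 39.7 with mix A and 24.3 and 25.5 with mix B and 3.94 and 4.45 in the control (log2 difference -2.35, SE 0.36, adjusted p = 0.000531), with BRD siRNA well above control and YAP/TAZ siRNA close to it.

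Regulators of transcription in the BET, MYC and AP-1 lists were called in 15%, 18.2% and 25% of cases, against 18.9% of all genes. Of 20 BET proteins and factors bound by them, 2 were higher and 1 was lower (median 0.08): BRD3 and the elongation factor ELL2 (log2 difference 0.71, SE 0.20, adjusted p = 0.0242), and the P-TEFb cyclin CCNT2 (log2 difference -0.87, SE 0.19, adjusted p = 0.00682). ELL2 was at 158 to 170.2, against 83 to 117, and CCNT2 at 34.8 to 41.3, against 66.4 to 74. Averaged by mix, ELL2 (adjusted p = 0.128) and CCNT2 (0.0772) were not called. HEXIM1, which holds P-TEFb inactive and is used as a marker of BET inhibition, was at 124 and 129.6 with mix 1 and 102 and 100.3 with mix 2, against 157 and 171 with mix A and 113 and 114 with mix B and 53.2 and 58.4 in the control. Both knockdowns stood above control in HEXIM1, and the difference between them did not pass (log2 difference -0.26, SE 0.22, adjusted p = 0.427). MYC was at 44.7 and 42.6 with mix 1 and 79 and 81.5 with mix 2, against 80.3 and 90.7 with mix A and 141 and 135 with mix B and 98.3 and 97.7 in the control, where YAP/TAZ mix 2 overlapped BRD mix A. The MYC difference missed the threshold (log2 difference -0.86, SE 0.29, adjusted p = 0.0525) and passed without BRD mix A replicate 1 (-0.91, adjusted p = 0.0442).

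Of 11 genes of the MYC and MAX network, 2 were higher and 0 lower (median 0.26). They were MXI1, an antagonist of MYC, at 41.7 and 39.8 with mix 1 and 32.1 and 32.3 with mix 2, against 16.7 and 16.1 with mix A and 10.9 and 10.6 with mix B (log2 difference 1.38, SE 0.25, adjusted p = 0.00213; adjusted p = 0.0575 with mixes averaged), and MLXIPL (ChREBP), a glucose-responsive factor. MLXIPL was at 8.86 and 9.58 with mix 1 and 13.8 and 12.4 with mix 2, against 0.511 to 2.37 and 1.39 to 2.41 in the control (log2 difference 2.40, SE 0.51, adjusted p = 0.00483). Of 12 AP-1 factors, 2 were higher and 1, FOSL1, was lower (median -0.24). BATF3 was at 5.45 to 6.92, against 0.897 to 1.23 and 3.84 to 5.30 (log2 difference 1.78, SE 0.35, adjusted p = 0.00312). FOSL2, the closest relative of FOSL1, was higher, at 156 and 171 with mix 1 and 63.2 and 68.3 with mix 2, against 39.2 and 39.9 with mix A and 46.2 and 52.2 with mix B and 120.0 to 120.4 (log2 difference 1.22, SE 0.33, adjusted p = 0.021). The FOSL2 difference was larger with mix 1 alone (1.87) than with mix 2 alone (0.56), and averaged by mix it was not called (adjusted p = 0.156). FOSL1 and FOSL2 thus differed in opposite directions.

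Stress programmes also held genes at either end. Of 26 p53 targets, 5 were higher and 4 lower (median 0.29), 34.6% called against 18.9% of all genes. Besides GDF15, the apoptosis gene BBC3 (PUMA) was higher, at 21.5 and 25.3 with mix 1 and 29.3 and 28.4 with mix 2, against 3.67 to 6.83 and 5.12 to 6.68 (log2 difference 2.16, SE 0.32, adjusted p = 0.000463). ZMAT3, an RNA-binding p53 target, was lower, at 8.95 to 10.3, against 43.7 to 48.4 and 37.6 to 40.4 (log2 difference -2.13, SE 0.24, adjusted p = 6.15e-05). Without BRD mix A replicate 2, 2 p53 targets were lower. MDA-MB-231 is known to carry mutant p53. Of 39 genes of the ATF4 and unfolded protein responses, 4 were higher and 6 lower (median -0.08), 25.6% called against 18.9% of all genes. DDIT4 (REDD1), an inhibitor of mTORC1, was at 296 to 319, against 101 to 116 and 87 to 94 (log2 difference 1.52, SE 0.19, adjusted p = 0.000141). TRIB3, a pseudokinase induced by ATF4, was at 32.1 to 40.3, against 4.41 and 3.51 with mix A and 8.71 and 8.48 with mix B and 25.7 to 31.1 (log2 difference 2.42, SE 0.34, adjusted p = 0.000289). EDEM1, which directs misfolded proteins to degradation, was at 60.2 and 57.2 with mix 1 and 16.6 and 16.8 with mix 2, against 232 and 242 with mix A and 171 and 167 with mix B and 58.6 to 60.9 (log2 difference -2.63, SE 0.39, adjusted p = 0.000431; adjusted p = 0.058 with mixes averaged). EDEM1 with mix 1 lay at the control level, and BRD siRNA stood above it.

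Lysosome and autophagy genes gave 6 higher and 6 lower of 46 (median 0.06), 26.1% called against 18.9% of all genes. WIPI1, of the early autophagosome, was at 101 to 133, against 40.1 to 60.7 and 28.3 to 32.6 (log2 difference 1.22, SE 0.22, adjusted p = 0.00172; adjusted p = 0.0634 with mixes averaged). MAP1LC3B, the LC3 protein of autophagosome membranes, was at 20.6 to 25, against 51.9 to 64.8 and 22.3 to 23.5 (log2 difference -1.37, SE 0.26, adjusted p = 0.00242). Its YAP/TAZ level was that of control, and BRD siRNA stood above. Hypoxia and glycolysis genes gave 4 higher and 2 lower of 36 (median -0.29), a called share of 16.7%, near the 18.9% of all genes. CA12, a membrane carbonic anhydrase and luminal marker, was at 147 and 147 with mix 1 and 46 and 45.7 with mix 2, against 9.63 to 11.4 and 19.1 to 19.4 (log2 difference 2.87, SE 0.38, adjusted p = 0.000202). ADM, adrenomedullin, a hypoxia-induced peptide, was at 61.5 and 57.2 with mix 1 and 39.1 and 39.5 with mix 2, against 93.6 and 103 with mix A and 147 and 152 with mix B and 37.6 to 39.8 (log2 difference -1.31, SE 0.25, adjusted p = 0.00289; adjusted p = 0.0714 with mixes averaged). NF-kB and inflammatory genes gave 4 higher and 1 lower of 30 (median 0.35), again a called share of 16.7%, near that of all genes. TRAF1, an adaptor of TNF receptors, was at 42.9 to 53.1, against 13.7 to 22.2 and 17.8 to 19.8 (log2 difference 1.4, SE 0.26, adjusted p = 0.00209). CSF3 (G-CSF) was at 5.91 and 6.05 with mix 1 and 3.02 and 2.75 with mix 2, against 0.0748 to 0.714 (log2 difference 1.93, SE 0.39, adjusted p = 0.00361). With YAP/TAZ mix 1 alone 12 genes of the NF-kB list were higher and 0 lower, with mix 2 alone 4 and 4, and without BRD mix A replicate 2 none was called lower. All genes together gave 2052 higher and 1908 lower with mix 1 alone, and 2586 and 2363 with mix 2 alone.

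Actin and SRF target genes gave 2 higher and 2 lower of 31 (median -0.12), a called share of 12.9% against 18.9% of all genes. The lower ones were LIMA1, an actin cross-linker, at 105 and 105 with mix 1 and 144 and 145 with mix 2, against 340.2 to 384 and 235 to 248 (log2 difference -1.55, SE 0.21, adjusted p = 0.000253), and MYL12A, a myosin light chain. MYL12A was at 306 and 301 with mix 1 and 394 and 416 with mix 2, against 780.0 and 899 with mix A and 722 and 739.5 with mix B and 293 to 295 (log2 difference -1.16, SE 0.23, adjusted p = 0.0036; adjusted p = 0.0578 with mixes averaged). The higher ones were MYL9 (log2 difference 1.11, SE 0.28, adjusted p = 0.0137) and CALD1 (log2 difference 1.06, SE 0.28, adjusted p = 0.0182), neither of them called with mixes averaged (adjusted p = 0.0832 and 0.1). Nuclear noncoding RNAs and host genes gave 1 lower and 0 higher of 15 (median -0.39, 6.67% called). That gene was SNHG7 (log2 difference -0.91, SE 0.29, adjusted p = 0.04), whose call was lost without any 1 of 6 of the 8 libraries (adjusted p = 0.0522 to 0.0783), the exceptions being replicate 1 of both YAP/TAZ mixes, and 2 members were lower without mix 1 replicate 1.

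**Figure D4:**
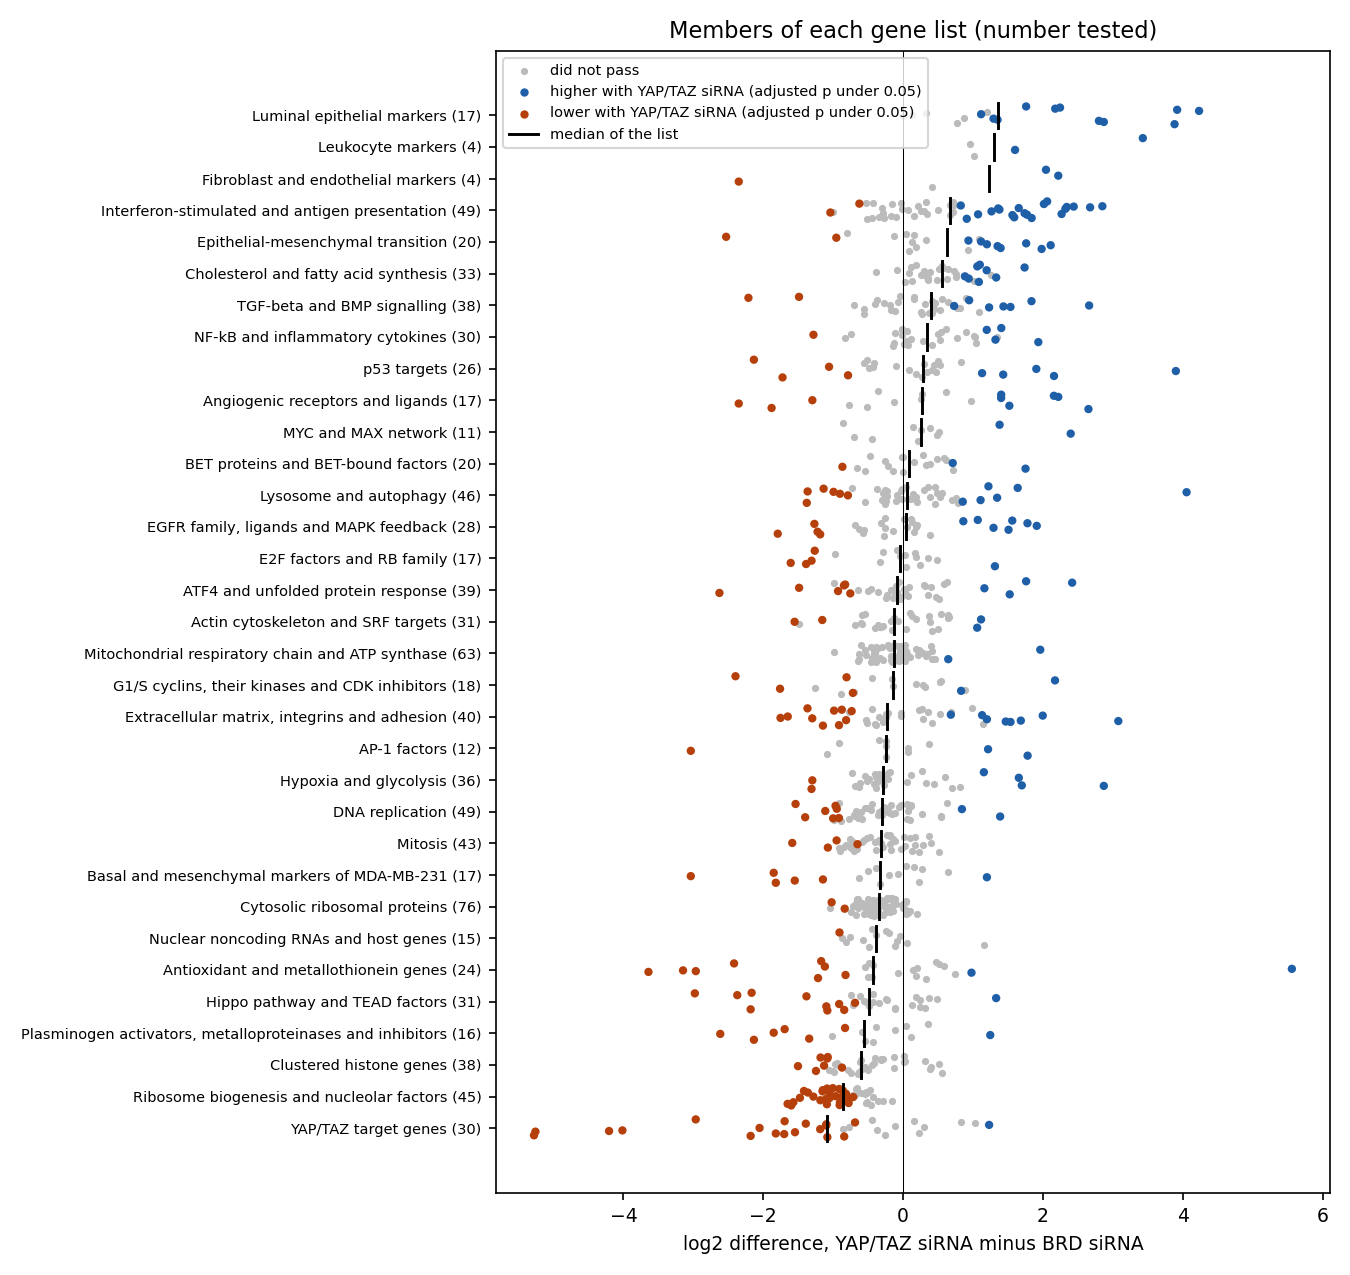
Log2 difference (YAP/TAZ siRNA minus BRD siRNA, x axis) of every tested member of 33 gene lists, 1 point per gene, with the number tested in brackets. Points in colour passed the test and black bars mark medians; luminal markers lie farthest to the right (median 1.35) and YAP/TAZ target genes farthest to the left (-1.09), and all 45 ribosome biogenesis genes lie left of 0.

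As a check on the cultures, markers of cell types other than breast epithelium were counted. Of 14 leukocyte markers written, 4 were in the table and tested, and 2 of them were higher (median 1.31). That is 50% called, against 18.9% of all genes, in a list of only 4. LYZ, lysozyme, was at 24.5 to 27.3, against 1.15 to 1.90 and 5.76 to 6.26 in the control (log2 difference 3.43, SE 0.31, adjusted p = 1.21e-05). CD68, a lysosomal protein, was at 92.6 and 96.4 with mix 1 and 134 and 150.1 with mix 2, against 35.4 to 39.7 and 60.4 to 61.3 (log2 difference 1.60, SE 0.23, adjusted p = 0.000372). CD14 (1.01, adjusted p = 0.101) and CD8A (0.95, adjusted p = 0.182) did not pass. The summed level of the 4 was 123 to 183 with YAP/TAZ siRNA, 38.2 to 42.9 with BRD siRNA and 67.5 to 69.7 with control siRNA. Of 13 fibroblast and endothelial markers written, 4 were in the table, with 2 higher, PECAM1 (log2 difference 2.04, SE 0.43, adjusted p = 0.00453) and PDGFRB (log2 difference 2.22, SE 0.50, adjusted p = 0.0067), and 1 lower, KDR. The called share of these 4 was 75%, against 18.9% of all genes. PECAM1 was at 14.1 and 12.9 with mix 1 and 5.82 and 7.66 with mix 2, against 0.852 to 2.39, and PDGFRB at 12.5 to 16.1, against 5.59 and 4.34 with mix A and 1.09 and 0.639 with mix B, where the value against mix A alone was 1.38. Averaged by mix, neither was called (adjusted p = 0.0516 and 0.0752). The summed level of the 4 was 30.5 to 33.7 with YAP/TAZ siRNA, 27.4 to 48.6 with BRD siRNA and 10.0 to 10.8 with control siRNA. The part of such cells in the other results was not tested.

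Genes with a wide gap between mixes of one target show what the averages can hide. ARL6IP1, a membrane protein of the endoplasmic reticulum, was at 400.4 and 416 with mix 1 and 23.4 and 25.8 with mix 2, against 359 and 429.9 with mix A and 599 and 645 with mix B and 474 to 503 in the control. Only YAP/TAZ mix 2 was low, and the mean difference of -2.27 (SE 0.80) did not pass (adjusted p = 0.0599). GPR56, an adhesion receptor, was at 134 and 140.1 with mix 1 and 9.64 and 12 with mix 2, against 35.2 and 35.9 with mix A and 10.9 and 11.8 with mix B, so mix 1 stood above every BRD library and mix 2 did not (log2 difference 0.92, SE 0.77, adjusted p = 0.434). SLC5A3, an inositol transporter, was at 208 and 189.9 with mix 1 and 20.8 and 20.5 with mix 2, against 271 and 218 with mix A and 115 and 102 with mix B (log2 difference -1.31, SE 0.69, adjusted p = 0.201). On the BRD side, HMGN4, a nucleosome-binding protein, was at 14.4 and 13.9 with mix A and 125 and 132 with mix B, against 81.9 to 115 with YAP/TAZ siRNA and 123 to 133 in the control (log2 difference 1.17, SE 0.62, adjusted p = 0.2). GLUD1, glutamate dehydrogenase, was at 51.8 and 57.4 with mix A and 357 and 372 with mix B, against 337 to 438 and 299 to 317 (log2 difference 1.41, SE 0.55, adjusted p = 0.0861). HES1, a repressor downstream of Notch, was at 3.27 and 3.74 with mix A and 34 and 32.3 with mix B, against 29.8 and 30.0 with mix 1 and 14.8 and 13.5 with mix 2 (log2 difference 0.80, SE 0.64, adjusted p = 0.404). In these 3 genes mix A alone was low, and mix B lay at or above control. None of these 6 genes was called.

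Libraries with JQ1, which displaces BET proteins from acetylated histones, share no library with the knockdowns and were used as a separate readout of the genes above. Across all genes tested in both, the difference between the knockdowns and that between JQ1 and DMSO had a Pearson correlation of -0.00358 and a Spearman correlation of 0.0116 over 13484 genes, which are not independent replicates. Among all genes tested, 37.6% were called higher and 36.3% lower after JQ1 (limma over 7 groups). The error of this fit is the spread within groups of 2 libraries, the knockdown and control siRNA libraries included. That spread may be technical, so the p-values and counts of the JQ1 test may overstate its certainty. Of the 1229 genes at least 2-fold higher with YAP/TAZ than with BRD siRNA, 410 (33.4%) were higher and 463 (37.7%) lower after JQ1. Of the 576 lower genes, 255 (44.3%) were higher and 221 (38.4%) lower. The share without a call after JQ1 was 29% of the higher and 17.4% of the lower genes, against 26.1% of all genes.

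Single genes of the comparison responded strongly to JQ1, in either direction. HAS2 went from 43.8 and 41.9 with DMSO to 0.361 and 0.878 with JQ1 (log2 difference -4.78, SE 0.11, adjusted p = 1.16e-18), the direction of BRD siRNA, which also lay below control. SPDEF went from 21.7 and 22.7 to 4.97 and 3.79 (log2 difference -2.11, SE 0.10, adjusted p = 4.05e-14), again toward the BRD level. AGR2 did the opposite and went from 5.51 and 5.08 to 18.1 and 15.9 (log2 difference 1.51, SE 0.08, adjusted p = 5.76e-13). CTGF rose from 415 and 393 to 1889 and 2036 (log2 difference 2.28, SE 0.07, adjusted p = 9.28e-17) and ANKRD1 from 934 and 899.8 to 2141 and 2243 (log2 difference 1.26, SE 0.07, adjusted p = 1.22e-12), as both stood above control with BRD siRNA. The metallothionein gene MT2A (log2 difference 2.45, SE 0.09, adjusted p = 1.81e-15) and PLAT (log2 difference 2.74, SE 0.06, adjusted p = 3.8e-19) rose too. All 45 ribosome biogenesis genes were called lower after JQ1 (median -1.02), as were all 43 mitotic genes (median -2.56) and all 38 clustered histone genes (median -2.41). Of all genes tested, 36.3% were called lower and 37.6% higher after JQ1. Other lists went up, with 31 higher and 6 lower of 46 lysosome and autophagy genes. Hypoxia and glycolysis genes gave 25 and 6 of 36, and antioxidant and metallothionein genes 20 and 3 of 24.

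**Figure D5:**
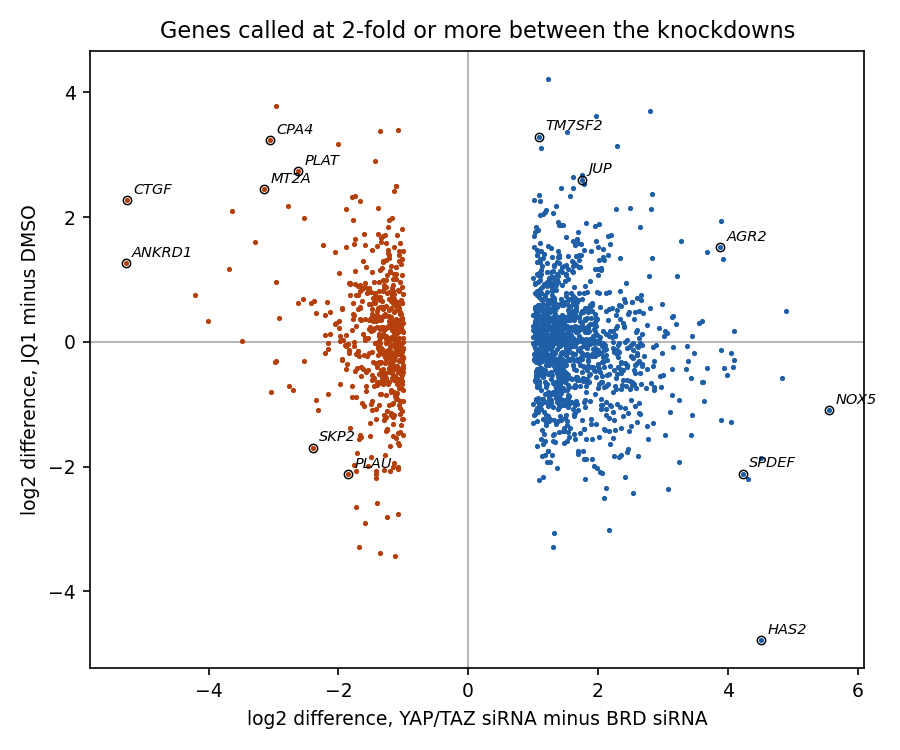
Log2 difference between JQ1 and DMSO (y axis) against the log2 difference between YAP/TAZ and BRD siRNA (x axis) for the genes called at 2-fold or more between the knockdowns, 1 point per gene. Genes higher (blue) and lower (red) with YAP/TAZ siRNA spread on both sides of 0 on the y axis, and HAS2 (4.51 and -4.78) lies at the lower right.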

How the data were processed

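Stranded libraries were prepared from total RNA depleted of ribosomal RNA, per the labels' protocols. Per the submitters' processing notes, the authors used TopHat2 2.0.5, HTSeq 0.6.0, CASAVA 1.8.4, R 3.0.0 and edgeR with the hg19 build; the order of these steps, the annotation and the strand setting of the counting are not stated in these sources. The authors deposited 1 table of 13734 genes and 14 libraries as a scaled signal, called CPM in its name; the columns of the 8 knockdown libraries sum to 903627 to 1080151, so values were treated as RPM of an effective library size and not as the CPM that the plan assumed. Every value was a whole multiple of 1 read (100% within a tolerance of 0.01), and a read was worth 0.0340 to 0.0474 units, so genes near a value of 1 rest on few reads.

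Groups came from the sample titles. The 13484 genes that reached 1 in 2 or more of the 8 libraries were tested on log2(value + 1) with limma 3.58.1 (R 4.3.3), the mix as a random effect (correlation 0.892), moderated variances with a trend and two-sided Benjamini-Hochberg adjusted p-values at 0.05. JQ1 against DMSO was tested in a limma model of 7 groups over 14 libraries (13674 genes). The alternatives included edgeR 4.0.16 (quasi-likelihood) and DESeq2 1.42.0 on the recovered reads. The libraries of a mix differed by more than sampling noise (chi-square per gene 3.44 to 10.6), and the scripts were tested on simulated data.

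Genes named in the text are the targeted genes, CTGF, CYR61, ANKRD1, AXL, MYC and HEXIM1, the 10 largest differences each way with libraries that do not overlap and a mean of at least 5 in the higher group, the 6 largest each way with control siRNA between the knockdowns, up to 4 members of each list by the moderated statistic, and the 4 widest gaps between mixes of each target; others are marked as chosen after their values were seen, and some genes the rule takes are not reported here. The members, the 33 lists and the tests were chosen with earlier results of these data known.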

Additional observations from a re-analysis of the deposited data

Results flagged for a closer look

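A single library stood apart from its group. LYZ, lysozyme, was at 27.3 in YAP/TAZ siRNA mix 2 replicate 2, while the other 3 YAP/TAZ libraries lay between 24.5 and 24.6, so that the gap to the nearest of them took nearly the whole range of the group. Chance alone marks about 1 in 20 groups of this size, and 1 of 246 groups was marked here. The difference of LYZ between the knockdowns kept its direction in each library.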

How the results depend on the processing

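The number of calls depends most on how the siRNA mixes enter the test. Against 1480 higher and 1074 lower genes, the counts were 3456 and 2989 without a mix term, 5617 and 5505 with 7 groups over 14 libraries, 3449 and 2920 with edgeR and 3703 and 3393 with DESeq2. The fit of 7 groups leaves the spread between mixes out of its error, and the other 3 take the 4 libraries of a target as independent. With each mix averaged they were 640 and 182, and 639 and 182 at 2-fold or more; of 112 called genes named here 39 were then not called (adjusted p = 0.0516 to 0.197). With YAP/TAZ mix 1 alone 1908 genes were lower, with mix 2 alone 2586 were higher and 2363 lower (1024 by at least 2-fold), against BRD mix A alone 970 and 554 were called, and against mix B alone 918 and 515. At 2-fold or more, 1229 higher genes became 742 with a pseudocount of 4, 2055 with edgeR and 2076 with DESeq2. With upper-quartile scaling 68.2% of calls were higher.

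Leaving out each library in turn gave 1236 to 1359 higher and 851 to 956 lower genes, and 1062 to 1190 and 496 to 557 at 2-fold or more. The labels do not say what a shared replicate number stands for. The correlation of deviations of same-numbered libraries was 0.157 to 0.25 for 4 of the 6 pairs of mixes and -0.116 and 0.0835 for the other 2, so the numbers were not taken as pairs. With a replicate block 1275 genes were higher and 927 lower, and the calls of RPS20 (adjusted p = 0.0589), ATP5L (0.064) and SNHG7 (0.0508) were lost.

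Medians of lists changed sign with YAP/TAZ mix 2 alone for BET factors (-0.049), NF-kB (-0.0415), lysosome (-0.0728), EGFR (-0.4948) and the respiratory chain (0.0203), and with mix 1 alone for matrix (0.27), hypoxia (0.0621), AP-1 (0.0449), E2F (0.2841), G1/S (0.0326) and ATF4 (0.0342). They did so against BRD mix B alone for actin (0.0434), basal markers (0.0323) and EGFR (-0.0632), and against mix A alone for EGFR (-0.0089). Quantile normalization did it for actin (0.0005) and the respiratory chain (0.0517), upper-quartile scaling for E2F (0.0585) and ATF4 (0.0269), and for E2F also edgeR (0.0025) and leaving out YAP/TAZ mix 1 replicate 2 (0.0041). With mixes averaged, the lower genes of the Hippo list went from 10 to 4 and of the metallothionein and antioxidant list from 8 to 4, the higher genes of the epithelial-mesenchymal list from 8 to 4, and the called genes of the cholesterol and fatty acid list from 8 to 0. Genes that changed sign were GPR56 with mix 2 alone (-0.85), SLC5A3 with mix 1 alone (0.29), and HMGN4 (-0.38) and HES1 (-0.66) against mix B alone; the cause was not tested. Low genes are limited by depth, since 1 read is worth 0.0340 to 0.0474 units.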
